A study of Mus musculus with 28 samples.

Results

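Solute carriers are membrane proteins that move nutrients, ions, metabolites and drugs across the membranes of the cell and of its organelles. The genes described here were every row of the deposited counts whose symbol began with Slc or Slco and a digit, apart from Slc25, whose members mostly serve the inner membrane of the mitochondrion. This rule reads the symbol alone, although it was set with earlier results of these data known. It found 211 of the 13519 genes counted, and the annotation of the genome build GRCm38 lists 346 such symbols. The 211 members belonged to 47 families by family number. For 205 of them the family or the symbol gave 1 of 12 classes by what is carried. The other 6 have the name of a carrier but are not carriers, among them the scaffold protein *Slc9a3r1* and the antisense RNA *Slc13a2os*.

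The members were measured by bulk RNA-seq in organoids grown from the colon epithelium of C57BL/6N mice. AC organoids were VillinCreERT2::APCflox/flox, PAC organoids carried Trp53LSL-R172H/+ in addition, BAC organoids carried BraffloxV600E/+ in addition, and BPAC organoids carried both. Each culture was treated for 24 hours with EtOH, the vehicle control, or with 3.5 µM 4-Hydroxytamoxifen (4-HT), which activates the Cre recombinase, and RNA was isolated 3 days later. AC came from 1 donor mouse and PAC, BAC and BPAC from 2 each, with duplicate cultures 1 and 2 per donor, which gave 14 cultures and 28 samples (each treatment had 2 of AC and 4 of every other genotype). All groups, the EtOH controls included, shared the floxed *Apc* alleles and CreERT2 under the Villin promoter, which is active in the intestinal epithelium, and no organoids without floxed *Apc* were analysed here. With EtOH the *Trp53* allele still held its stop cassette. The study describes the duplicates as separate passages of a donor's organoids, so the spread between samples covers passages and at most 2 mice per genotype.

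In the colon, carriers of the apical membrane take up short-chain fatty acids, sodium, sulfate and metals and exchange chloride for bicarbonate, while carriers of the basolateral membrane pass solutes on to the blood or supply the cell from it. Exchangers of large amino acids work as pairs of a heavy chain of the Slc3 family and a light chain of the Slc7 family. Carriers of the Golgi and endoplasmic reticulum, mostly of the Slc35 family, bring in nucleotide sugars for the making of glycoproteins such as mucins. Loss of *Apc* releases Wnt signalling in this epithelium, and the V600E form of Braf drives the MAPK cascade.

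The counts summed to between 20577276 and 40068718 per sample. The 4-HT samples of BAC and BPAC in duplicate 1 had the highest totals, from 37438687, against at most 30306835 elsewhere. Both 4-HT samples of PAC in duplicate 1 held *Xist* at 25.2 and 22.0 CPM together with the Y-linked *Ddx3y* at 13.8 and 13.0 CPM, whereas in each of the other samples one or the other was at most 0.29 CPM, and they differed from each other by less than any other pair of replicates (chi-square per gene 2.38, against at least 8.53). Whether they came from separate donors was not tested. *Trp53* rose with 4-HT in the 4 genotypes, by 1.51 on the log2 scale in PAC and 1.84 in BPAC. Its EtOH level was lower with the stop cassette, by -0.98. *Apc* was higher with 4-HT by 0.67 to 0.92 in the 4 genotypes, and *Braf* differed by -0.30 in PAC and by -0.06 to 0.07 in the others. Reads over all exons of *Apc* and *Braf* do not tell the recombined allele from the other. Epithelial markers summed to at least 16330 CPM in every sample, while 2 of 10 fibroblast, 3 of 10 immune and 4 of 10 endothelial markers were in the counts and summed to at most 16.6, 7.08 and 9.21 CPM. Markers of differentiated colonocytes were lower with 4-HT, with 7 of the 10 called lower for AC, 9 for PAC, 9 for BAC and 10 for BPAC. Their summed level was 17180 to 27850 CPM with EtOH and 3394 to 12080 CPM with 4-HT, and their part in the values below was not tested. In bulk samples, fewer cells of a type and less RNA per cell cannot be told apart.

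The members took 1.54% to 2.06% of all counts with EtOH (median 1.68%) and 1.17% to 1.50% with 4-HT (median 1.32%). Levels are given as CPM, counts scaled to the library total after TMM normalisation, and levels of different genes are compared only as CPM per kilobase of exons. Of the 211 members, 198 averaged at least 1 CPM. With EtOH the highest level per length was that of *Slc9a3r1*, which anchors carriers and channels at the apical membrane, with 416 CPM per kilobase. Among the carriers it was followed by *Slc6a14*, an importer of neutral and cationic amino acids, at 377, the choline carrier-like *Slc44a4* at 280.2, the zinc importer *Slc39a4* at 160.0, the sodium/proton exchanger *Slc9a2* at 108 and the CMP-sialic acid carrier *Slc35a1* at 102 CPM per kilobase. With 4-HT the level per length was 197 for *Slc9a3r1*, 61.5 for *Slc6a14*, 123 for *Slc44a4*, 116 for *Slc39a4*, 40.4 for *Slc9a2* and 100.3 for *Slc35a1*. The other classes were led with EtOH by the glucose carrier *Slc2a1* at 93.3, *Slc22a18* at 83.6, the monocarboxylate carrier *Slc16a1* at 82.6, the sulfate carrier *Slc26a2* at 74.9, the riboflavin carrier *Slc52a3* at 24.1, the vesicular nucleotide carrier *Slc17a9* at 20.1 and the nucleoside carrier *Slc29a1* at 11.8 CPM per kilobase.

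**Figure D1:**
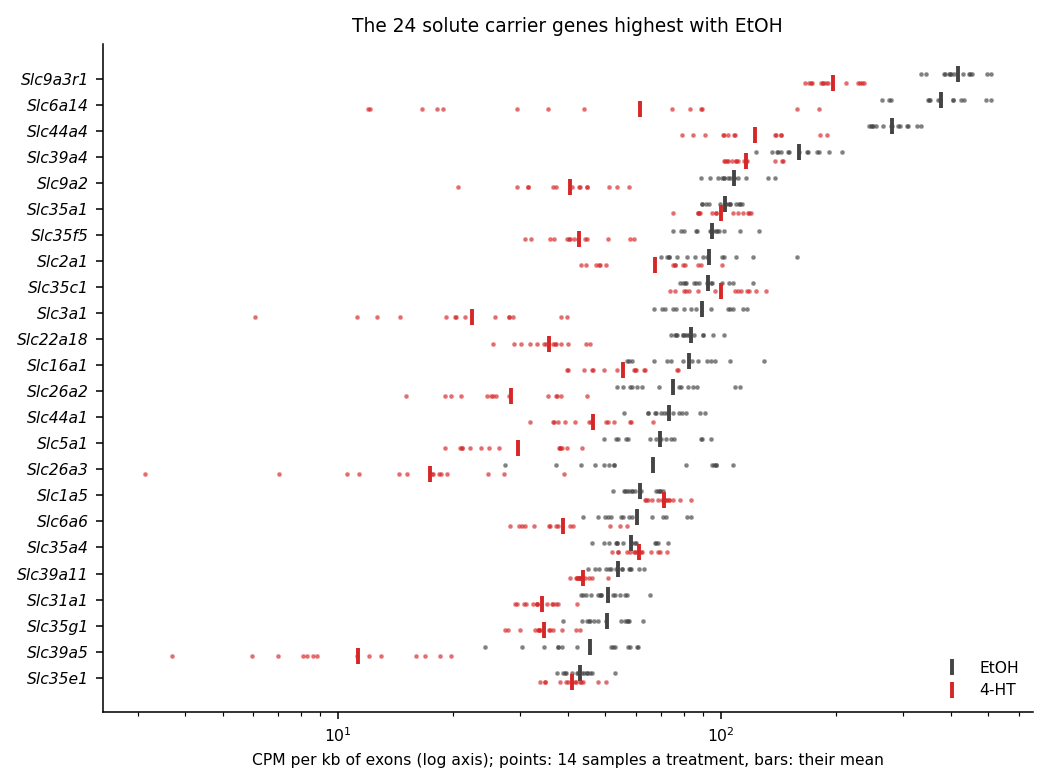
Level per length of the 24 members highest with EtOH, in CPM per kilobase of exons on a log axis, with a point for each of the 28 samples. *Slc9a3r1* led with a mean of 416 with EtOH, and *Slc6a14* went from 377 with EtOH to 61.5 with 4-HT.

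Promoter sequence is shown for 3 members on which the results turn, the cystine importer *Slc7a11* (ENSMUSG00000027737, chromosome 3 from 49892526 to 50443614 on the minus strand), *Slc6a14* (ENSMUSG00000031089, chromosome X from 21714896 to 21742355 on the plus strand) and the sodium-coupled importer of short-chain fatty acids *Slc5a8* (ENSMUSG00000020062, chromosome 10 from 88885992 to 88929515 on the plus strand), all in GRCm38. Each run is the 250 bases before the start of a RefSeq transcript, 5′ to 3′ on the strand of the gene, from RefSeq on GRCm38.p6, which covered 163 of the 211 members. Capitals mark matches to 4 motifs, searched on both strands from 250 bases before to 50 bases after the start. They were CARE (TGATGNAA), the element bound by Atf4, AP-1 (TGANTCA), the E-box (CACGTG) and HNF4 (CAAAGNNCA).
Slc7a11, chr3:50443614-50443863, minus strand: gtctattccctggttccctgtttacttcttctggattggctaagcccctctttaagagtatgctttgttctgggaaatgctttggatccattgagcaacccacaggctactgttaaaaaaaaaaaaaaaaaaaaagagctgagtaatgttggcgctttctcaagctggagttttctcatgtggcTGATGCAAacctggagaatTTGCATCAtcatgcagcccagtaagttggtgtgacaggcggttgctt
Slc6a14, chrX:21714650-21714899, plus strand: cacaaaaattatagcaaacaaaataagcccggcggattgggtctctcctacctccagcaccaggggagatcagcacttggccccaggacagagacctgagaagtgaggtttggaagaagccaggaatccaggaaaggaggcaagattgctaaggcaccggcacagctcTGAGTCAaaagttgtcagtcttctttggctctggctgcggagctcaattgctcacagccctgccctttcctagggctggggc
Slc5a8, chr10:88885742-88885991, plus strand: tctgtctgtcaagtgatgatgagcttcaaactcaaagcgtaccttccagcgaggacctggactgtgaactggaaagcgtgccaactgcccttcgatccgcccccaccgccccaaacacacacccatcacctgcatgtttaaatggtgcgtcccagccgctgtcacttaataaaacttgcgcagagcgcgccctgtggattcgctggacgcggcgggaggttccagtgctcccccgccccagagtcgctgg

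The *Slc7a11* window held CARE with first bases at -66, on the strand printed, and -47, on the opposite strand, counted from the transcript start, and the *Slc6a14* window held AP-1 at -82. No match overlapped another, and the *Slc5a8* window had none of the 4. CARE was in 3.97% of all 32851 promoters and in 4.91% of the members' promoters, AP-1 in 7.81% and 7.36%, the E-box in 7.15% and 11.7% and HNF4 in 6.36% and 6.75%. A match is a string of letters and not a bound site.

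The 4-HT change was tested gene by gene as 4-HT against EtOH within a genotype, with edgeR's quasi-likelihood test and Benjamini-Hochberg adjustment over all 13519 genes, and a gene was called at an adjusted p under 0.01. More carriers fell than rose in each genotype. In AC, 27 members fell, against 4.25% of all genes called lower, and 2 rose, against 3.0% called higher. In PAC, 61 members fell (4-HT lowered 12.2% of all genes) and 16 rose (11.2%). In BAC, 85 fell (21.5%) and 33 rose (20.3%), and in BPAC, 97 fell (23.0%) and 34 rose (22.0%). Thus 12.8%, 28.9%, 40.3% and 46.0% of the 211 members fell in AC, PAC, BAC and BPAC, and 0.948%, 7.58%, 15.6% and 16.1% rose. The median log2 change of the members was -0.16, -0.32, -0.33 and -0.38 in that order, beside 0.01, -0.03, -0.04 and -0.04 over all genes tested. No member was called in opposite directions in different genotypes, and 70 members were called in none. AC had 2 samples per treatment and the other genotypes 4, so the counts are not comparable as effect sizes.

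The EtOH and the 4-HT sample of a culture deviated together from their group means, and once the culture was fitted as a replicate block, 13 members rose and 51 fell in AC (7.45% and 8.99% of all genes) and 26 rose and 90 fell in PAC (16.5% and 18.4%). In duplicate 1 of PAC the EtOH samples held either *Xist* or *Ddx3y* and the 4-HT samples both, so the pairing of these cultures rests on their labels. Without them, in a fit added after seeing the data, 5 members rose and 33 fell in PAC with the block (6.73% of all genes were called). Without duplicate 1 of AC 1 member was called (0.0666% of all genes) and without duplicate 2 of AC 3 (0.178%), in fits that leave AC with 1 sample per treatment, assumed to vary like the other groups. In PAC, 37 members were called without replicate 1 (12.7% of all genes), 36 without replicate 2 (10.5%) and 3 without both (0.355%), namely *Slc22a18*, *Slc41a1* and *Slc9a3r1*, while all 77 kept their direction. Scaling by library size alone moved the median of all genes to 0.23, 0.20, 0.13 and 0.18 in AC, PAC, BAC and BPAC. In AC, 13 members were then called higher and 20 lower, against 11.2% and 2.23% of all genes. The same counts were 33 and 32 in PAC (25.1% and 5.45% of all genes), 44 and 69 in BAC (28.7% and 15.3%), and 49 and 74 in BPAC (32.0% and 15.1%). Relative to all genes the members' median was -0.17, -0.29, -0.29 and -0.34 after TMM and -0.17, -0.29, -0.29 and -0.35 by library size alone.

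A total of 25 members fell in all 4 genotypes, 11.8% of the 211, against 3.85% of all genes, and 2 rose in all 4, 0.948% of the 211, against 2.66% of all genes. The 2 were *Slc7a5*, the light chain of the exchanger of large neutral amino acids, and the magnesium carrier *Slc41a1*. Those that fell included carriers of amino acids (*Slc3a1*, *Slc6a8*, *Slc6a14*), fatty acids and dicarboxylates (*Slc5a8*, *Slc13a2*, *Slc16a5*), bile acids (*Slc51a*, *Slc51b*), organic cations and carnitine (*Slc22a5*, *Slc22a18*, *Slc22a23*), zinc (*Slc30a1*, *Slc39a5*), and nucleotide sugars (*Slc35d1*, *Slc35d2*). Values in brackets after rose or fell are log2 changes, and members outside the fixed rule for names, such as *Slc3a1*, *Slc6a8*, *Slc39a5* and *Slc35d1*, were named after their values were seen. Without the PAC cultures of duplicate 1, 2 members fell (0.178% of all genes) and 1 rose (0.141%) in all 4. In AC, BAC and BPAC together 27 fell and 2 rose, with or without these cultures. The share of all genes was not counted for AC, BAC and BPAC together, so these counts have no background. In each duplicate alone AC has 1 sample per treatment, assumed to vary like the other groups. In duplicate 1 alone 22 fell (4.23% of all genes) and 2 rose (1.76%) in all 4, and in duplicate 2 alone 0 did in either direction (0.0296% of all genes fell and 0.0% rose). With the replicate block 45 fell (7.99%) and 9 rose (6.38%), and by library size alone 17 fell (1.83%) and 10 rose (9.98%).

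**Figure D2:**
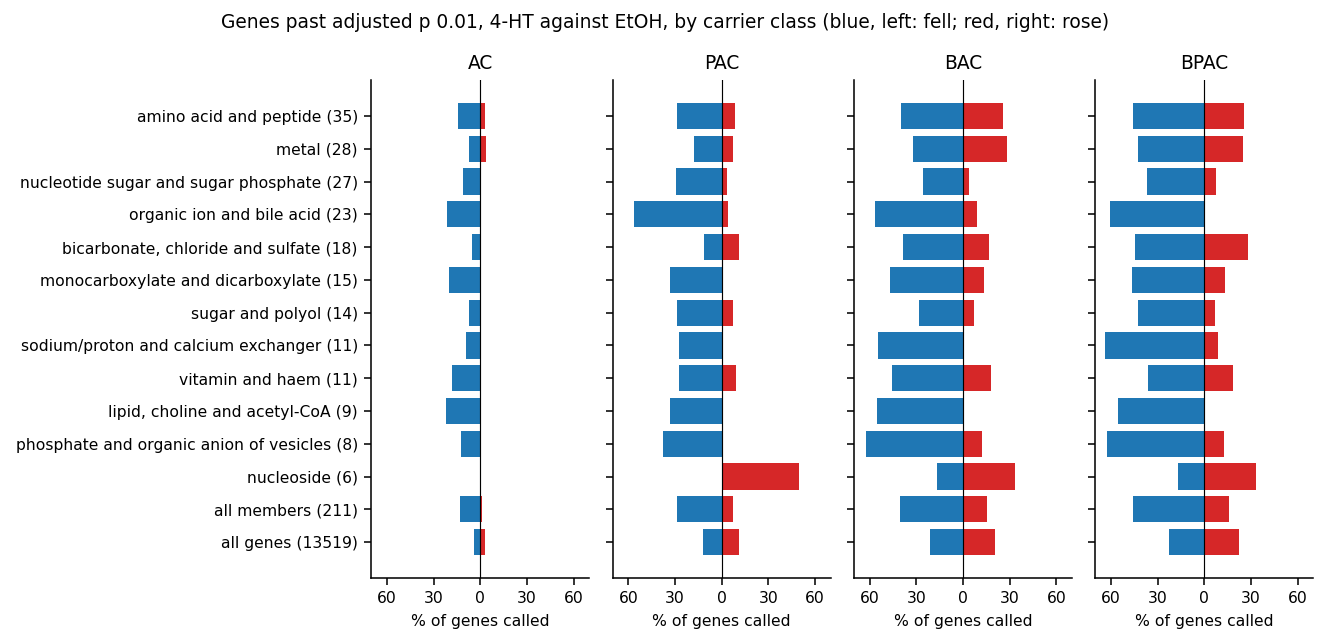
Percentage of the genes of each carrier class called lower (to the left) or higher (to the right) with 4-HT at an adjusted p under 0.01, in AC, PAC, BAC and BPAC, with the number of genes in each class. Falls outnumber rises in most classes. The 6 nucleoside carriers are an exception in PAC, where 3 rose and none fell, and in BAC and BPAC, where 2 rose and 1 fell.

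The counts by class below are to be read beside the shares of all genes called in the main fit. These were 4.25% lower and 3.0% higher in AC, 12.2% and 11.2% in PAC, 21.5% and 20.3% in BAC, and 23.0% and 22.0% in BPAC. With the replicate block, the class counts below grew by more than 1.5 times in places. In AC the falls were then 8 among amino acid, 11 among organic ion and bile acid, 7 among metal, 4 among bicarbonate, chloride and sulfate, 3 each among sugar and among phosphate and vesicular anion carriers, and 2 among sodium/proton and calcium exchangers. The rises in AC were 3 among amino acid carriers, 2 each among the bicarbonate, lipid and metal classes, and 1 each among the carboxylate, nucleoside, sodium/proton and vitamin classes. In PAC, 13 metal carriers, 13 nucleotide sugar carriers, 6 of the bicarbonate class, 5 exchangers of sodium or calcium and 5 of the lipid class fell. The rises in PAC were 4 among metal carriers, 2 each among sugar, nucleotide sugar and vitamin carriers, and 1 each among the lipid, carboxylate and sodium/proton classes. In BAC 1 sodium/proton or calcium exchanger rose, and in BPAC 4 nucleotide sugar and 2 sugar carriers did. Of all genes, 25.3% rose and 26.7% fell in BAC in this fit, and 26.7% rose and 27.7% fell in BPAC.

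The 14 sugar and polyol carriers summed to 678 to 1289 CPM with EtOH (median 862) and from 527 to 679 CPM with 4-HT (median 560.3), and the sum was lower with 4-HT in 14 of 14 cultures. In AC 1 of them fell and none rose, in PAC 4 fell and 1 rose, in BAC 4 and 1, and in BPAC 6 and 1. *Slc5a1*, the sodium-glucose cotransporter of the apical membrane, had 203 to 388 CPM (median 283) with EtOH and 78.4 to 178 CPM (median 105) with 4-HT. The ranges of the treatments did not overlap. Its log2 change was -0.80 for PAC, -1.69 for BAC and -1.78 for BPAC, while the AC cultures gave -0.38 to -0.32 and were not called. *Slc5a4b*, a related member of the same family with a close paralog in *Slc5a4a* that makes its count uncertain, fell in each genotype (-2.45 for AC, -1.34 for PAC, -3.43 for BAC and -3.80 for BPAC). *Slc2a1*, the facilitative glucose carrier, had 244 to 553 CPM (median 308) with EtOH and 151 to 353 CPM (median 265) with 4-HT, and the treatments overlapped. It fell in PAC (-0.81) and was not called in the other genotypes, in which every culture was below its EtOH sample by -0.74 to -0.61 in AC, -0.34 to -0.02 in BAC and -0.68 to -0.03 in BPAC.

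The 35 amino acid and peptide carriers moved in both directions. In AC 5 fell and 1 rose, in PAC 10 and 3, in BAC 14 and 9, and in BPAC 16 and 9. Their sum ran from 3139 to 4250.0 CPM with EtOH (median 3719) and from 2305 to 2943 CPM with 4-HT (median 2533), lower in 14 of 14 cultures, and *Slc6a14* alone made up 35.0% of it with EtOH. *Slc6a14* had 906 to 1743 CPM (median 1278) with EtOH and 41.3 to 619.9 CPM (median 136) with 4-HT, and no 4-HT sample reached the lowest EtOH sample. Its log2 change, given with its standard error, was -2.30 ± 0.47 for AC (adjusted p = 0.00207), -1.75 ± 0.33 for PAC (adjusted p = 2.61e-04), -3.92 ± 0.36 for BAC (adjusted p = 4.86e-09) and -3.85 ± 0.36 for BPAC (adjusted p = 3.84e-09). Other importers fell as well. *Slc3a1*, the heavy chain of the cystine and dibasic amino acid carrier, changed by -2.03 for AC, -1.42 for PAC, -2.16 for BAC and -2.61 for BPAC. An opposite-strand gene, *Prepl*, shares 26.5% of the exonic bases of *Slc3a1*, and the strandedness of the counting is not given in the sources used here. The creatine carrier *Slc6a8* changed by -1.47 for AC, -1.39 for PAC, -1.87 for BAC and -2.21 for BPAC. *Slc15a1*, the proton-coupled carrier of di- and tripeptides, had 7.16 to 64.5 CPM (median 18.2) with EtOH and 1.33 to 10.2 CPM (median 3.23) with 4-HT and fell (-2.11 for PAC, -2.32 for BAC and -2.82 for BPAC). The proline carrier *Slc6a20a*, whose count is uncertain for its close paralog *Slc6a20b*, fell (-2.67 for AC, -2.53 for BAC and -3.92 for BPAC). *Slc6a4*, the serotonin carrier, was low throughout, with 2.06 to 10.6 CPM (median 5.64) with EtOH and 0 to 2.04 CPM (median 0.511) with 4-HT. It fell (-1.59 for PAC, -4.52 for BAC and -4.67 for BPAC). The taurine carrier *Slc6a6* had 369 to 706 CPM (median 479) with EtOH and 238 to 482 CPM (median 309) with 4-HT and fell in BAC (-0.62) and BPAC (-0.80).

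Both chains of the exchanger of large neutral amino acids and carriers of small neutral amino acids were among those that rose. *Slc7a5* (ENSMUSG00000040010, chromosome 8 from 121881150 to 121907694 on the minus strand) had 53.1 to 97.0 CPM (median 76.3) with EtOH and 120.1 to 232 CPM (median 186) with 4-HT. Every 4-HT sample was above every EtOH sample. The log2 change was 0.78 ± 0.20 for AC (adjusted p = 0.00939), 0.80 ± 0.14 for PAC (adjusted p = 1.37e-04), 1.36 ± 0.14 for BAC (adjusted p = 3.10e-08) and 1.55 ± 0.14 for BPAC (adjusted p = 3.32e-09). Its heavy chain partner *Slc3a2* had 136 to 167 CPM (median 153) with EtOH and 150.2 to 232 CPM (median 184) with 4-HT and rose in BAC (0.45) and BPAC (0.47), whereas the culture changes were -0.14 to -0.05 in AC and -0.00 to 0.15 in PAC. *Slc43a1*, a facilitative carrier of large neutral amino acids, stood at 0.882 to 2.40 CPM (median 2.02) with EtOH and 2.23 to 7.90 CPM (median 4.92) with 4-HT and rose (1.14 for PAC, 1.49 for BAC and 1.89 for BPAC). *Slc1a4*, a carrier of alanine, serine and cysteine, rose (0.81 for BAC and 0.88 for BPAC). The system A carrier *Slc38a1*, which takes up glutamine and alanine, rose (1.26 for BAC and 0.83 for BPAC) from 63.2 to 213 CPM (median 84.5) with EtOH to 125 to 316 CPM (median 184) with 4-HT, and the ranges overlapped. The glutamine importers *Slc1a5* and *Slc38a2* were called in no genotype, with culture changes of 0.06 to 0.45 and 0.17 to 0.32 in BPAC. With the replicate block both were called in BPAC, and *Slc1a5* in BAC as well.

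Classes follow family numbers, so that the 15 carriers of mono- and dicarboxylates include *Slc13a1*, which carries sulfate. Of the 15, 3 fell for AC, 5 for PAC, 7 for BAC and 7 for BPAC, and 2 rose in BAC and in BPAC. Their sum was 741 to 1378 CPM with EtOH (median 914) and from 377 to 718 CPM with 4-HT (median 484), lower in 14 of 14 cultures, and without *Slc13a1* it was 592 to 1345 CPM with EtOH (median 829.5) and 330.1 to 712 CPM with 4-HT (median 441). *Slc5a8*, which takes up butyrate and other short-chain fatty acids, had 108 to 194 CPM (median 147) with EtOH and 5.97 to 74.6 CPM (median 19.3) with 4-HT. The treatments did not overlap. Its log2 change was -1.88 ± 0.41 for AC (adjusted p = 0.00295), -1.52 ± 0.28 for PAC (adjusted p = 2.37e-04), -3.32 ± 0.31 for BAC (adjusted p = 4.96e-09) and -3.50 ± 0.31 for BPAC (adjusted p = 1.71e-09). *Slc13a2*, the sodium-coupled carrier of citrate and succinate, had 61.3 to 179 CPM (median 91.5) with EtOH and 2.66 to 21.6 CPM (median 11.6) with 4-HT and fell (-2.65 for AC, -2.34 for PAC, -3.41 for BAC and -3.90 for BPAC). Its antisense neighbour *Slc13a2os*, which fell (-1.79 for PAC, -4.05 for BAC and -3.92 for BPAC), shares 26.2% of the exonic bases of *Slc13a2*. Reads in the shared part cannot be told apart without strand. The lactate and butyrate carrier *Slc16a1* had 253 to 575 CPM (median 363) with EtOH and 176 to 342 CPM (median 250.0) with 4-HT and fell (-0.69 for PAC, -0.54 for BAC and -0.58 for BPAC). *Slc16a3*, the lactate exporter of glycolytic cells, was called in no genotype and varied more between samples than between treatments, with 7.12 to 282 CPM (median 57.6) with EtOH and 2.12 to 249 CPM (median 82.2) with 4-HT.

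The 23 carriers of organic ions and bile acids had 5 falls and no rise for AC, 13 and 1 for PAC, 13 and 2 for BAC and 14 and none for BPAC. Their sum was 739 to 1198 CPM with EtOH (median 941) and from 329 to 612 CPM with 4-HT (median 416), lower in 14 of 14 cultures. Carriers of both steps of bile acid passage were among those that fell. *Slc10a2*, the apical importer, had 64.1 to 253 CPM (median 128) with EtOH and 11.0 to 110.2 CPM (median 30.6) with 4-HT and fell (-1.25 for PAC, -2.14 for BAC and -2.79 for BPAC), with -1.98 to -1.81 in the AC cultures. The subunits of the basolateral exporter, *Slc51a* and *Slc51b*, moved side by side, and opposite-strand genes share 17.7% and 12.8% of their exonic bases. *Slc51a* fell (-2.59 for AC, -1.34 for PAC, -2.19 for BAC and -2.94 for BPAC). *Slc51b* fell (-2.48 for AC, -1.40 for PAC, -2.44 for BAC and -2.83 for BPAC), from 11.6 to 28.1 CPM (median 19.5) with EtOH to 1.05 to 11.5 CPM (median 4.10) with 4-HT, without overlap. The prostaglandin importer *Slco2a1* fell (-1.95 for PAC, -1.95 for BAC and -2.72 for BPAC), and so did the carnitine carrier *Slc22a5* (-0.88 for AC, -0.76 for PAC, -1.01 for BAC and -1.13 for BPAC). *Slc22a21*, a close paralog, makes the count of *Slc22a5* uncertain. *Slc22a18*, highest of the class per length, had 126 to 174 CPM (median 138) with EtOH and 43.2 to 77.5 CPM (median 60.7) with 4-HT and fell (-1.07 for AC, -0.93 for PAC, -1.28 for BAC and -1.60 for BPAC). *Slco2b1*, an importer of organic anions, was near zero with 4-HT in the genotypes with the *Braf* allele, at 1 to 3 counts in the BAC and 0 to 2 counts in the BPAC samples. Its fitted fold changes there depend on the prior count, and its level was 0.252 to 3.44 CPM (median 1.33) with EtOH and 0 to 0.362 CPM (median 0.0736) with 4-HT. *Slco5a1* rose in PAC and BAC, from 0.0414 to 2.73 CPM (median 0.603) with EtOH to 1.015 to 6.76 CPM (median 3.25) with 4-HT over all genotypes.

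Among the 18 carriers of bicarbonate, chloride and sulfate, 1 fell for AC, 2 fell and 2 rose for PAC, 7 fell and 3 rose for BAC, and 8 fell and 5 rose for BPAC. Their sum was 1932 to 3135 CPM with EtOH (median 2361) and from 1194 to 2095 CPM with 4-HT (median 1468), lower in 14 of 14 cultures but in 11 of 14 when scaled by library size alone. *Slc26a3* (ENSMUSG00000001225, chromosome 12 from 31390871 to 31473917 on the plus strand), the chloride/bicarbonate exchanger of the colonic surface, had 174 to 686 CPM (median 335) with EtOH and 20.0 to 248 CPM (median 113) with 4-HT. On the log2 scale it changed by -2.67 ± 0.42 for BAC (adjusted p = 1.09e-05) and -2.58 ± 0.42 for BPAC (adjusted p = 1.35e-05), and its culture changes were -1.16 to -0.44 in AC and -1.53 to -0.56 in PAC. The sulfate carrier *Slc26a2* fell (-0.93 for PAC, -1.81 for BAC and -1.81 for BPAC), from 664 to 1392 CPM (median 907) with EtOH to 186 to 553 CPM (median 317) with 4-HT, without overlap. The basolateral sodium-bicarbonate cotransporter *Slc4a4* fell (-1.34 for BAC and -1.46 for BPAC). *Slc26a6* was low and called in no genotype, with 1.45 to 4.71 CPM (median 2.12) with EtOH and 1.80 to 3.88 CPM (median 2.81) with 4-HT. *Slc4a11*, a member of the bicarbonate carrier family that moves protons, had 5.85 to 29.1 CPM (median 12.8) with EtOH and 31.6 to 98.3 CPM (median 68.4) with 4-HT, and the lowest 4-HT sample was above the highest EtOH sample. It rose (1.71 for PAC, 2.49 for BAC and 2.30 for BPAC). *Slc12a8*, of the cation-chloride cotransporter family, rose (0.89 for PAC, 1.41 for BAC and 1.59 for BPAC), also without overlap of the treatments. The sodium-potassium-chloride cotransporter *Slc12a2*, which loads crypt cells with chloride for secretion, rose in BPAC (0.52). It was higher with 4-HT in 14 of 14 cultures, by 0.72 to 0.72 for AC, 0.14 to 0.90 for PAC, 0.20 to 0.53 for BAC and 0.20 to 0.87 for BPAC, and with the replicate block it was called in all 4 genotypes. *Slc12a4*, a potassium-chloride cotransporter of 0.258 to 2.26 CPM (median 1.50) with EtOH, rose (2.02 for BAC and 1.36 for BPAC). *Slc26a9*, a chloride carrier with at most 10 counts in any EtOH sample, rose in BPAC to 0.822, 2.74, 1.74 and 1.12 CPM in the 4 samples.

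Of the 11 sodium/proton and calcium exchangers, 1 fell for AC, 3 for PAC, 6 for BAC and 7 for BPAC, and 1 rose for BPAC. Their sum was 909 to 1477 CPM with EtOH (median 1080.0) and from 298 to 668 CPM with 4-HT (median 496), lower in 14 of 14 cultures, and *Slc9a2* made up 67.9% of it with EtOH. Both exchangers of the apical membrane stood lower with 4-HT. *Slc9a2* had 619 to 969 CPM (median 734) with EtOH and 144 to 404 CPM (median 292) with 4-HT and fell (-1.15 for AC, -1.06 for PAC, -1.57 for BAC and -1.84 for BPAC). *Slc9a3*, the main apical sodium absorber, had 81.7 to 253 CPM (median 131) with EtOH and 5.19 to 81.3 CPM (median 36.9) with 4-HT, again without overlap, and fell (-2.55 for BAC and -2.85 for BPAC). In AC and PAC its culture changes were -1.25 to -1.17 and -1.81 to -0.31. Their scaffold *Slc9a3r1* fell (-1.07 for AC, -0.84 for PAC, -0.99 for BAC and -1.42 for BPAC). The related *Slc9a3r2* rose (1.03 for PAC, 0.95 for BAC and 1.16 for BPAC) and had 5.08 to 9.35 CPM (median 6.91) with EtOH.

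The 8 carriers of phosphate and of vesicular anions had 1 fall in AC, 3 in PAC and 5 in BAC and in BPAC, with 1 rise each in BAC and BPAC. *Slc34a2*, the apical sodium-phosphate cotransporter, had 5.31 to 44.1 CPM (median 10.4) with EtOH and 0.285 to 3.18 CPM (median 1.52) with 4-HT and fell (-2.13 for PAC, -3.12 for BAC and -4.18 for BPAC). The housekeeping phosphate carrier *Slc20a1* fell (-1.13 for BAC and -0.90 for BPAC). The vesicular glutamate carrier *Slc17a8* was low, with 0.799 to 2.60 CPM (median 1.37) with EtOH and 0.07 to 0.582 CPM (median 0.31) with 4-HT, and fell (-2.34 for AC, -1.81 for PAC, -2.54 for BAC and -2.97 for BPAC). *Slc17a9*, which loads vesicles with ATP, was called in no genotype.

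The 28 metal carriers had 2 falls and 1 rise for AC, 5 and 2 for PAC, 9 and 8 for BAC, and 12 and 7 for BPAC. Their sum was 1946 to 3275 CPM with EtOH (median 2138) and from 1498 to 1921 CPM with 4-HT (median 1651), lower in 14 of 14 cultures and in 13 of 14 when scaled by library size alone. *Slc41a1* (ENSMUSG00000013275, chromosome 1 from 131827493 to 131848865 on the plus strand), which carries magnesium, had 14.1 to 24.1 CPM (median 18.8) with EtOH and 37.4 to 48.2 CPM (median 44.3) with 4-HT, and every 4-HT sample was above every EtOH sample. Its log2 change was 1.11 ± 0.18 for AC (adjusted p = 4.13e-04), 1.19 ± 0.13 for PAC (adjusted p = 1.07e-06), 1.23 ± 0.13 for BAC (adjusted p = 3.43e-08) and 1.22 ± 0.13 for BPAC (adjusted p = 2.87e-08). Importers of zinc went both ways. *Slc39a8*, which also carries manganese, had 24.3 to 74.5 CPM (median 40.8) with EtOH and 53.5 to 129 CPM (median 95.2) with 4-HT and rose (0.89 for PAC, 1.10 for BAC and 1.25 for BPAC). *Slc39a10* rose (1.41 for BAC and 1.33 for BPAC). *Slc39a2* was low and among the members with the most rise in BAC. Over all genotypes it had 0.0802 to 0.878 CPM (median 0.393) with EtOH and 0.5675 to 1.67 CPM (median 1.02) with 4-HT. *Slc39a4*, the importer of dietary zinc at the apical membrane, had 384 to 644 CPM (median 483) with EtOH and 316 to 452 CPM (median 342) with 4-HT and fell in BPAC (-0.63). The basolateral zinc importer *Slc39a5* fell (-1.47 for AC, -1.34 for PAC, -2.48 for BAC and -2.76 for BPAC). *Slc30a1*, the zinc exporter of the plasma membrane, fell (-0.69 for AC, -0.70 for PAC, -0.94 for BAC and -1.06 for BPAC), and its 4-HT samples lay below all EtOH samples. For copper, the importer *Slc31a1* had 185 to 279.8 CPM (median 208) with EtOH and 124 to 181 CPM (median 142) with 4-HT and fell (-0.59 for PAC, -0.62 for BAC and -0.59 for BPAC). For iron, the exporter ferroportin, *Slc40a1*, had 173 to 754 CPM (median 322) with EtOH and 62.4 to 236 CPM (median 111) with 4-HT. It fell (-1.69 for BAC and -2.07 for BPAC). The apical iron importer *Slc11a2* was called in no genotype, with culture changes of 0.07 to 1.38 for AC, -0.71 to 0.78 for PAC, -0.11 to 0.97 for BAC and -1.22 to 0.28 for BPAC. The manganese carriers *Slc30a10* and *Slc39a14* were called in none, and *Slc30a10* had at most 8.85 CPM in any sample.

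The 6 nucleoside carriers had a summed level that was higher with 4-HT in 14 of 14 cultures, after TMM and by library size alone. After TMM no other class of carriers was higher in 14 of 14. The sum was 70.4 to 88.5 CPM with EtOH (median 83.1) and from 104 to 152 CPM with 4-HT (median 126). None was called in AC, 3 rose in PAC, and in BAC and BPAC 2 rose and 1 fell. *Slc29a1* (ENSMUSG00000023942, chromosome 17 from 45585200 to 45599606 on the minus strand), the equilibrative carrier that supplies nucleosides for salvage, had 39.3 to 54.9 CPM (median 48.1) with EtOH and 68.9 to 112 CPM (median 85.2) with 4-HT. Each 4-HT sample was above each EtOH sample. The change on the log2 scale was 0.64 ± 0.12 for PAC (adjusted p = 2.62e-04), 1.08 ± 0.12 for BAC (adjusted p = 8.22e-08) and 1.06 ± 0.12 for BPAC (adjusted p = 8.64e-08), and its culture changes were 0.49 to 0.68 in AC, where it was called with the replicate block. *Slc28a2*, the sodium-coupled concentrative carrier of purine nucleosides, was low, with 1.05 to 5.17 CPM (median 2.67) with EtOH and 0.42 to 3.52 CPM (median 1.22) with 4-HT and fell (-1.76 for BAC and -1.49 for BPAC).

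The 11 carriers of vitamins and haem summed to 337 to 448 CPM with EtOH (median 378) and from 309.7 to 434 CPM with 4-HT (median 379). The sum was lower with 4-HT in 2 of 2 AC, 4 of 4 PAC, 0 of 4 BAC and 2 of 4 BPAC cultures, with log2 ratios of -0.17 to -0.10, -0.22 to -0.12, 0.04 to 0.20 and -0.15 to 0.04, and lower in none of the 14 when scaled by library size alone. In AC 2 fell, in PAC 3 fell and 1 rose, in BAC 5 and 2, and in BPAC 4 and 2. The carriers of folate moved in opposite directions. *Slc19a1*, the reduced folate carrier, had 39.7 to 62.5 CPM (median 47.6) with EtOH and 59.4 to 133 CPM (median 98.2) with 4-HT and rose (0.69 for PAC, 1.07 for BAC and 1.07 for BPAC). *Slc46a1*, the proton-coupled folate carrier, fell (-0.61 for BAC and -0.60 for BPAC). The riboflavin carrier *Slc52a2* fell (-0.60 for AC, -0.54 for PAC, -0.52 for BAC and -0.74 for BPAC), without overlap of the treatments, while *Slc52a3* was called in no genotype. *Slc5a6*, the carrier of biotin and pantothenate, fell (-0.52 for BAC and -0.48 for BPAC).

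No carrier of lipids, choline or acetyl-CoA rose in any genotype without the replicate block, with which *Slc27a1* rose in AC (0.57) and PAC (0.30) and *Slc44a2* in AC (0.58), and of the 9, 2 fell in AC, 3 in PAC and 5 in BAC and in BPAC. Their sum was 1534 to 2001 CPM with EtOH (median 1740.0) and from 708 to 1331 CPM with 4-HT (median 925), lower in 14 of 14 cultures. *Slc44a4* (ENSMUSG00000007034, chromosome 17 from 34914466 to 34930436 on the plus strand), which carries thiamine pyrophosphate and choline in the colon, had 760.4 to 1035 CPM (median 867) with EtOH and 247 to 588 CPM (median 338) with 4-HT, without overlap. The log2 change was -1.05 ± 0.16 for AC (adjusted p = 1.74e-04), -0.82 ± 0.11 for PAC (adjusted p = 1.27e-05), -1.29 ± 0.11 for BAC (adjusted p = 2.03e-09) and -1.67 ± 0.11 for BPAC (adjusted p = 4.27e-11). The fatty acid carrier *Slc27a4* fell (-1.04 for AC, -0.83 for PAC, -1.13 for BAC and -1.46 for BPAC), also without overlap, and the choline carrier *Slc44a1* fell in BAC and BPAC (-0.78 for BAC and -0.85 for BPAC).

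Of the 27 carriers of nucleotide sugars and sugar phosphates, 3 fell for AC, 8 for PAC, 7 for BAC and 10 for BPAC, and none, 1, 1 and 2 rose. Over all genes 4.25%, 12.2%, 21.5% and 23.0% fell and 3.0%, 11.2%, 20.3% and 22.0% rose, in that order. Their sum was 2718 to 3438 CPM with EtOH (median 2932) and from 2121 to 2851 CPM with 4-HT (median 2468), lower in 14 of 14 cultures and in 10 of 14 when scaled by library size alone. *Slc35a1*, highest of the class per length, was called in no genotype. It had 205 to 260.1 CPM (median 239) with EtOH and 173 to 276 CPM (median 223) with 4-HT. *Slc35d1*, which brings UDP-glucuronic acid and UDP-N-acetylgalactosamine into the endoplasmic reticulum, fell (-1.44 for AC, -1.14 for PAC, -1.24 for BAC and -1.51 for BPAC). *Slc37a2*, a phosphate-linked exchanger of sugar phosphates, varied widely between EtOH samples, with 4.89 to 123 CPM (median 40.6) with EtOH and 0.381 to 41.1 CPM (median 3.69) with 4-HT. It fell (-3.94 for BAC and -4.72 for BPAC), whereas its culture changes were -1.70 to 0.65 in AC and -1.27 to 0.04 in PAC.

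The partners of the carriers were read from lists. Of the sodium pump and ABC transporters, 28 of 32 were in the counts. Of these, 2 fell and 1 rose for AC, 11 and 3 for PAC, 17 and 2 for BAC, and 18 and 2 for BPAC. Of 14 ancillary subunits and scaffolds of carriers, 5 of them members, 12 were in the counts. There 7 fell in AC and 8 in each of the others, and none, 1, 2 and 2 rose. Beside both lists, 4.25% of all genes fell and 3.0% rose in AC, 12.2% and 11.2% in PAC, 21.5% and 20.3% in BAC, and 23.0% and 22.0% in BPAC. Median log2 changes over these lists were -0.41, -0.35, -0.70 and -0.91 for the pump and ABC transporters and -0.97, -0.78, -0.97 and -1.34 for the subunits, in AC, PAC, BAC and BPAC.

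**Figure D3:**
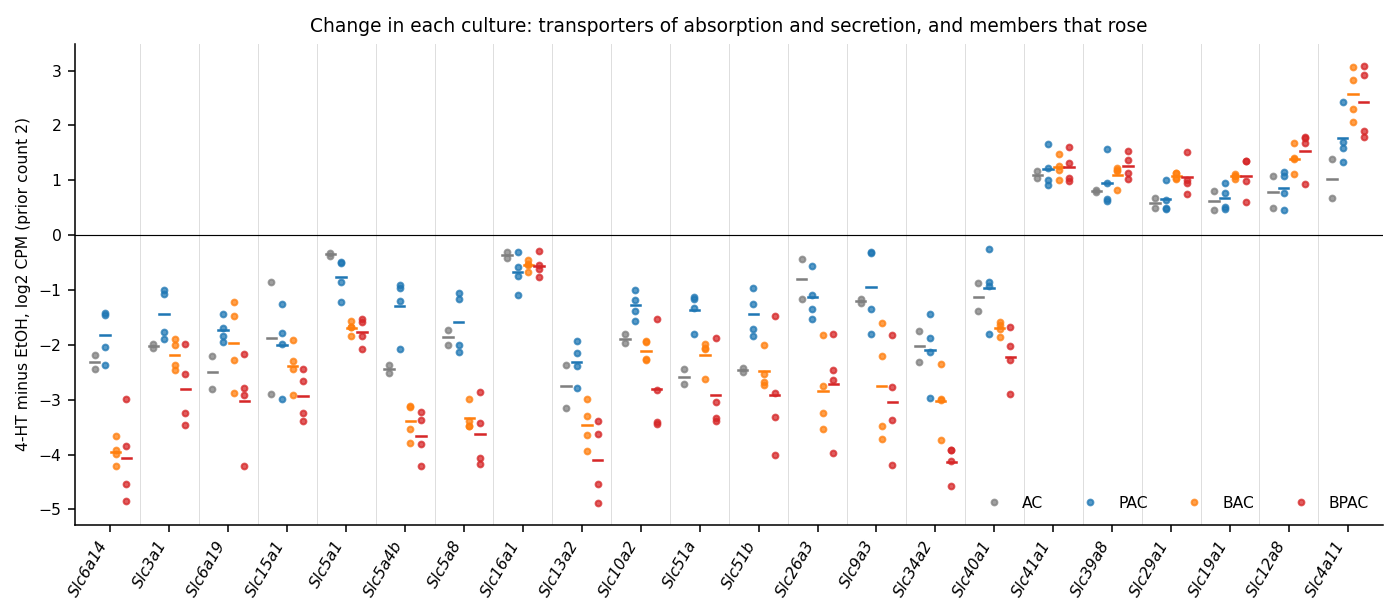
Log2 change from EtOH to 4-HT in each of the 14 cultures for 22 carriers, from CPM with a prior count of 2, by genotype. *Slc41a1* is above 0 and *Slc6a14*, *Slc5a8* and *Slc13a2* are below 0 in 14 of 14 cultures.

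To ask whether the response depended on the *Braf* allele, the 4-HT changes of the genotypes that carry it (BAC, BPAC) were averaged and set against the average of those that do not (AC, PAC). The difference was called for 24 members, 7 with a higher change with the allele (3.05% of all genes were called higher) and 17 with a lower one (3.55%), which is 3.32% and 8.06% of the 211. The median difference was -0.14 over the members and -0.01 over all genes. With the replicate block 18 were higher (6.51% of all genes) and 43 lower (7.48%), and by library size alone 5 (2.01%) and 17 (3.8%). With AC replicate 1 left out 8 members were called (1.95% of all genes) and with AC replicate 2 left out 10 (2.57%), where the 1 AC sample left per treatment was assumed to vary like the other groups, and between 16 and 32 without any other culture (4.36% to 8.26%). In duplicate 2 alone 4 were called (0.237%), *Slc5a1*, *Slc5a8*, *Slc6a14* and *Slc7a11*. Without the PAC cultures of duplicate 1 the count was 24 (5.84%), of which 22 were among those above. In each sentence on this contrast the value is a difference of log2 changes, and a value after ± is its standard error.

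Of the 7 higher with the allele, 5 belong to the amino acid class. *Slc7a11*, the light chain of the cystine/glutamate exchanger that feeds glutathione synthesis, had 51.4 and 68.3 CPM in the AC and 46.8, 27.6, 61.0 and 46.6 in the PAC samples with EtOH, and 27.2 and 50.3 and 26.4, 24.5, 42.1 and 51.3 with 4-HT. In BAC it had 28.6, 37.6, 46.2 and 40.8 CPM with EtOH and 61.2, 57.1, 93.0 and 82.6 with 4-HT, and in BPAC 28.7, 31.3, 21.1 and 31.7 and 59.5, 49.5, 83.5 and 87.7. The culture changes were -0.92 to -0.44 for AC, -0.82 to 0.14 for PAC, 0.60 to 1.09 for BAC and 0.66 to 1.98 for BPAC, so that no culture with the allele was as low as any without it. *Slc7a11* rose (0.94 for BAC and 1.31 for BPAC), and the difference was 1.61 ± 0.29 (adjusted p = 6.54e-04). It is the member whose promoter, printed above, held CARE on both strands. Of the 5 members higher with the allele that had a RefSeq promoter, 2 held CARE, *Slc7a11* and *Slc1a4*, and none held any of the other motifs. CARE was in 3.97% of all promoters and in 4.91% of the members' promoters. With only 5 promoters, whether the motif bears on the change was not tested. The heavy chain of *Slc7a11*, *Slc3a2*, had 182 to 232 CPM (median 196) in the 8 4-HT samples with the *Braf* allele and 150.2 to 161 CPM (median 158) in the 6 without, without overlap, and differed by 0.48 ± 0.09 (adjusted p = 7.05e-04). *Slc7a5*, which shares this heavy chain, had 184 to 232 CPM (median 209) in the 8 4-HT samples with the *Braf* allele and 120.1 to 134 CPM (median 130.0) in the 6 without, again without overlap. Its difference was 0.66 ± 0.16 (adjusted p = 0.00562), on top of a rise in the genotypes without the allele. *Slc1a4* had 234 to 255 CPM (median 241) in the 8 4-HT samples with the *Braf* allele and 161 to 179.9 CPM (median 168) in the 6 without and differed by 0.62 ± 0.07 (adjusted p = 7.62e-06). The glycine carrier *Slc6a9*, with 27.8% of its exonic bases shared with the opposite-strand gene *Ccdc24*, had 23.3 to 31.1 CPM (median 26.3) in the 8 4-HT samples with the *Braf* allele and 15.5 to 19.2 CPM (median 16.8) in the 6 without and differed by 0.88 ± 0.14 (adjusted p = 1.94e-04). The remaining 2 were *Slc16a6*, a monocarboxylate family member exporting ketone bodies that shares 21.5% of its exonic bases with the opposite-strand gene *Amz2*, at 0.61 ± 0.12 (adjusted p = 0.00197), and *Slc35c2*, named here after its value was seen, at 0.34.

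**Figure D4:**
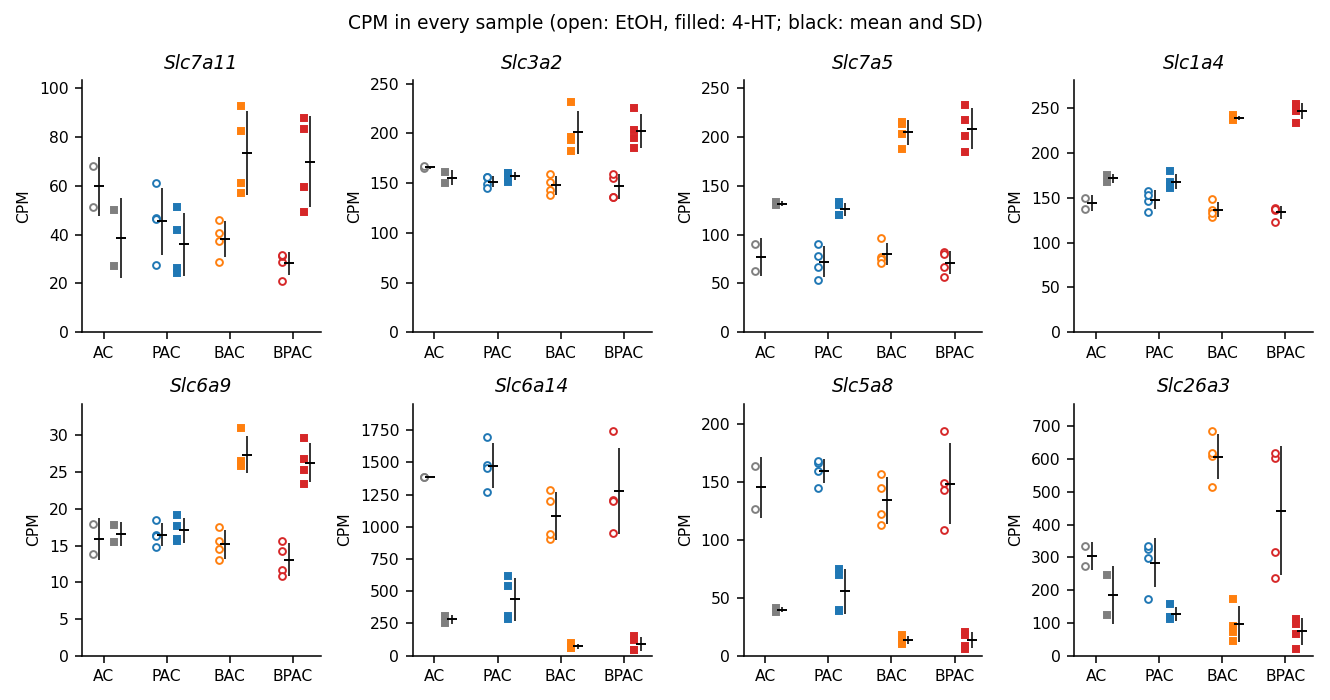
CPM in every sample for 8 carriers, open points with EtOH and filled points with 4-HT, with the mean and SD of each group of 2 (AC) or 4 samples. With 4-HT, *Slc7a11*, *Slc3a2*, *Slc7a5*, *Slc1a4* and *Slc6a9* have higher means with the *Braf* allele (BAC, BPAC) than without it, and *Slc6a14*, *Slc5a8* and *Slc26a3* lower ones.

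Of the 17 members lower with the allele, 10 also fell in AC, in PAC or in both. *Slc6a14* had 41.3 to 151 CPM (median 63.6) in the 8 4-HT samples with the *Braf* allele and 256 to 619.9 CPM (median 307) in the 6 without, without overlap, and its difference was -1.86 ± 0.36 (adjusted p = 0.0012). Its culture changes were -2.44 to -2.18 for AC, -2.37 to -1.43 for PAC, -4.21 to -3.67 for BAC and -4.85 to -2.99 for BPAC. AP-1 was in 3 of the 15 promoters matched among these 17, that of *Slc6a14* printed above and those of *Slc26a1* and *Slco2b1*, the E-box in 2, and CARE and HNF4 in 1 each. The shares among the 15 were 20.0%, 13.3%, 6.67% and 6.67%, beside 7.81%, 7.15%, 3.97% and 6.36% of all promoters. *Slc5a8* had 5.97 to 20.4 CPM (median 12.8) in the 8 4-HT samples with the *Braf* allele and 37.9 to 74.6 CPM (median 40.3) in the 6 without, without overlap, and differed by -1.71 ± 0.32 (adjusted p = 7.49e-04). *Slc5a1* had 78.4 to 108 CPM (median 88.9) in the 8 4-HT samples with the *Braf* allele and 156 to 178 CPM (median 157) in the 6 without and differed by -1.16 ± 0.16 (adjusted p = 4.58e-05). Its sequence relatives *Slc5a4b* and *Slc5a9* differed by -1.72 and -1.13, so that 3 of the 14 sugar carriers were lower and none higher. *Slc13a1*, the sodium-sulfate cotransporter, had 3.23 to 11.1 CPM (median 4.57) in the 8 4-HT samples with the *Braf* allele and 33.4 to 126 CPM (median 45.5) in the 6 without. It differed by -2.30 ± 0.55 (adjusted p = 0.00583). *Slc1a1*, the carrier of glutamate and cysteine, had 0.387 to 0.715 CPM (median 0.612) in the 8 4-HT samples with the *Braf* allele and 1.21 to 2.33 CPM (median 1.86) in the 6 without, and *Slc6a4* had 0 to 0.568 CPM (median 0.359) in the 8 4-HT samples with the *Braf* allele and 0.611 to 2.04 CPM (median 1.80) in the 6 without. They differed by -2.15 ± 0.30 (adjusted p = 6.25e-05) and -3.37 ± 0.56 (adjusted p = 2.93e-04), and an opposite-strand gene shares 31.9% of the exonic bases of *Slc1a1*. The fatty acid carrier and acyl-CoA synthetase *Slc27a2* had 0 to 0.238 CPM (median 0.17) in the 8 4-HT samples with the *Braf* allele and 1.16 to 2.20 CPM (median 1.73) in the 6 without, at 0 to 6 counts in the BAC and 3 to 10 counts in the BPAC samples. Its difference was -3.67 ± 0.53 (adjusted p = 7.20e-05), and it was not called with 4-HT in AC or PAC, with culture changes of 0.42 to 0.80 and -0.45 to 0.26. *Slco2b1* gave a fitted value of -3.51 from at most 3 counts in any BAC or BPAC sample with 4-HT. *Slc44a4* had 247 to 339.8 CPM (median 317) in the 8 4-HT samples with the *Braf* allele and 432 to 588 CPM (median 447) in the 6 without and differed by -0.54 ± 0.12 (adjusted p = 0.00418). The other 6 were the sulfate and oxalate exchanger *Slc26a1* (-1.72), *Slc23a3* (-1.35), *Slc39a5* (-1.21), *Slc4a4* (-0.79), the potassium-chloride cotransporter *Slc12a7* (-0.66) and *Slc22a18* (-0.45). Of these 17, *Slc5a9*, *Slc12a7*, *Slc23a3*, *Slc26a1* and *Slc39a5* were named after their values were seen. No nucleoside, phosphate or sodium/proton carrier was called in this contrast without the replicate block. With it, the nucleoside carrier *Slc29a1* (0.45) and the phosphate carrier *Slc20a2* (0.39) were called higher. The phosphate class had 3 lower, *Slc17a4* (-0.65), *Slc20a1* (-0.67) and *Slc34a2* (-1.57), and the sodium/proton and calcium class 4 lower, *Slc8a1* (-1.25), *Slc9a2* (-0.63), *Slc9a3* (-1.79) and *Slc9a9* (-1.63). Those called with the block alone were named for their values, as *Slc27a1* and *Slc44a2* were above. The other classes then had 8 lower among amino acid, 5 each among sugar, organic ion and bicarbonate, chloride and sulfate, 4 among vitamin, 2 among metal and 1 among nucleotide sugar carriers. Higher were 3 metal carriers, 2 each of the bicarbonate and nucleotide sugar classes and 1 vitamin carrier, and the remaining counts moved by at most 1.5 times.

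**Figure D5:**
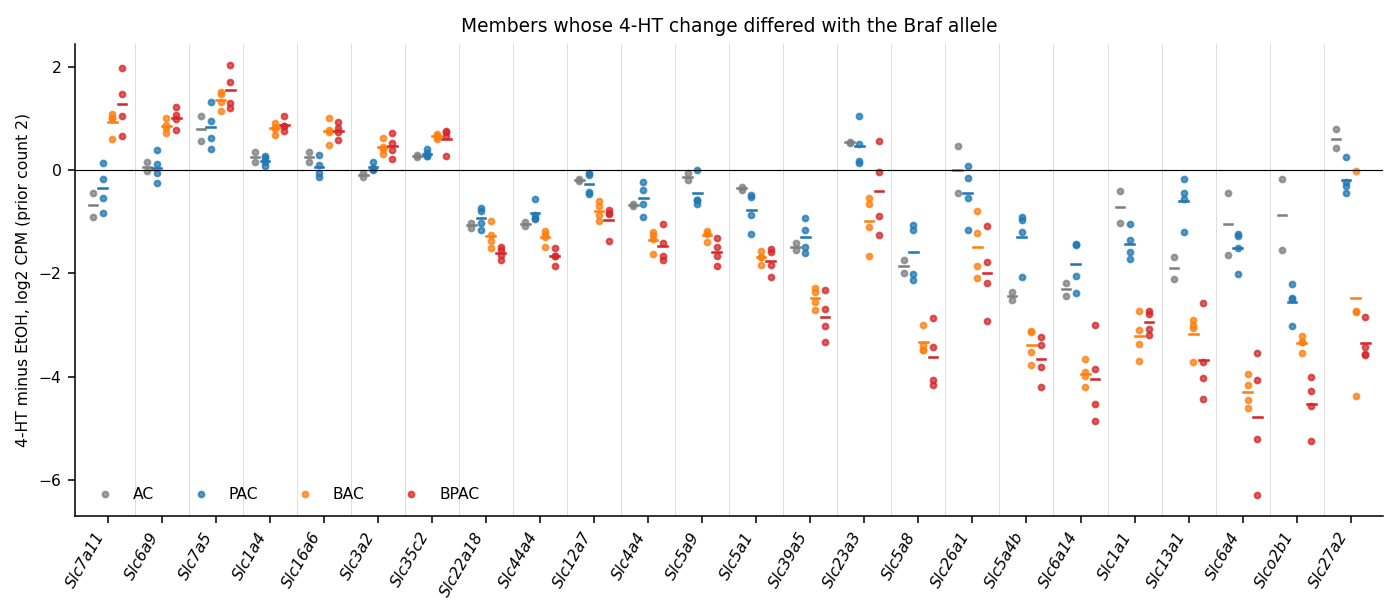
Log2 change from EtOH to 4-HT in each culture, by genotype, for the 24 members called for the difference with the *Braf* allele, from CPM with a prior count of 2. The fitted differences, which are not drawn, lie between 0.34 and 1.61 for the 7 higher members and between -3.67 and -0.45 for the 17 lower ones.

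*Slc26a3* was not called for this difference, with 20.0 to 173 CPM (median 82.2) in the 8 4-HT samples with the *Braf* allele and 113 to 248 CPM (median 121) in the 6 without and overlapping ranges. *Slc9a3* was not called either, and both were called with the replicate block. *Slc2a1* had 264 to 353 CPM (median 281) in the 8 4-HT samples with the *Braf* allele and 151 to 176 CPM (median 167) in the 6 without, and *Slc16a3* had 81.7 to 249 CPM (median 111) in the 8 4-HT samples with the *Braf* allele and 2.12 to 61.5 CPM (median 21.2) in the 6 without, each without overlap but not called for the difference in change. The *Trp53* allele was compared in the same way, with PAC and BPAC averaged and set against AC and BAC. It was called for 0 members with edgeR, DESeq2 and the replicate block (0.0148% of all genes in each) and with limma-voom (0.0074%), and 3 members had an unadjusted p under 0.05 (1.04% of all genes), or 15 with the replicate block (3.17%). With EtOH, the level differed with the *Braf* allele for 1 member (0.0296% of all genes), *Slc5a6*, which was higher in BAC and BPAC at 18.8 to 29.5 CPM (median 23.5) than in AC and PAC at 12.0 to 17.8 CPM (median 15.3). Its log2 difference was 0.72 (adjusted p = 0.00914). Leaving out any culture but BPAC replicate 4 ended this call, as did limma-voom, library size alone, thinning and summing the counts of each donor, while DESeq2 called 2 members. With EtOH and the *Trp53* allele, 0 members differed with edgeR (0.0592% of all genes), DESeq2 (0.163%) or limma-voom (0.0518%), and 18 had an unadjusted p under 0.05 (4.96% of all genes).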

How the data were processed

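RNA-seq of the 28 organoid samples was re-analysed from raw counts per gene that the authors deposited for 13519 genes by Ensembl identifier, without normalization. The submitters' processing notes name Trimmomatic 0.39 and STAR 2.5.2b with GRCm38. Which program and annotation produced the counts, and whether strand was used, is not given in the sources used here. Symbols, coordinates and exon lengths came from GENCODE. The members and lists were chosen with earlier results of these data known.

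Counts were normalised with TMM and tested with edgeR 4.0.16 (quasi-likelihood test, R 4.3.3) over 8 groups (4 genotypes by 2 treatments), with p-values adjusted by Benjamini-Hochberg over all genes and a threshold of 0.01. The study names limma, so limma-voom (limma 3.58.1) and DESeq2 1.42.0 were alternatives. Culture changes used log2 CPM with a prior count of 2. The EtOH and 4-HT samples of a culture share donor and duplicate number, and their deviations from the group means correlated at 0.245 to 0.532 in every culture, so the culture was fitted as the replicate block, although the lowest value and the *Xist* and *Ddx3y* levels leave the pairing of PAC in duplicate 1 to its labels. A label without a number was taken as duplicate 1. Genes named were 49 key members listed for their role in the gut, of which 48 were counted, the 6 members with the most rise and the 6 with the most fall per genotype and for the *Braf* and *Trp53* contrasts, the 3 per direction for EtOH levels, and the highest per length in each class, with a mean of at least 10 counts. Counts carry no molecular identifiers, so p-values cover only the spread between these samples. The dose follows the labels and the study's RNA sequencing methods, while its organoid culture methods give 3 µM. Figures were drawn with Python 3.11.15 and matplotlib 3.10.9. The reads were not analysed here.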

Additional observations from a re-analysis of the deposited data

Results flagged for a closer look

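The 4-HT change of 24 carriers differed between the genotypes with and without the *Braf* allele by the test of the difference itself, and each was noted for that reason. The difference of log2 changes was higher with the allele for *Slc7a11* (1.61), *Slc6a9* (0.88), *Slc7a5* (0.66), *Slc1a4* (0.62), *Slc16a6* (0.61), *Slc3a2* (0.48) and *Slc35c2* (0.34). It was lower for *Slc27a2* (-3.67), *Slco2b1* (-3.51), *Slc6a4* (-3.37), *Slc13a1* (-2.30), *Slc1a1* (-2.15), *Slc6a14* (-1.86), *Slc5a4b* (-1.72), *Slc26a1* (-1.72), *Slc5a8* (-1.71), *Slc23a3* (-1.35), *Slc39a5* (-1.21), *Slc5a1* (-1.16), *Slc5a9* (-1.13), *Slc4a4* (-0.79), *Slc12a7* (-0.66), *Slc44a4* (-0.54) and *Slc22a18* (-0.45). The values for *Slco2b1* and *Slc27a2* rest on at most 3 and 10 counts in any BAC or BPAC sample with 4-HT.

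Among the named carriers, the changes of the 4 cultures of a genotype were also screened for a culture set apart from the other 3 by most of the range, with Dixon's ratio of the gap to the range above its 95% critical value. This held in 9 of 169 groups, 5.33%, and chance flags about 1 in 20 groups. *Slc51a* stood out in BAC, where donor 1 duplicate 2 gave a log2 change of -2.62 and the other cultures -2.07 to -1.99 (ratio 0.873). In BPAC, *Slc26a2* had -1.23 in donor 2 duplicate 2 against -2.01 to -1.96 in the others (ratio 0.937). For *Slc12a8* the BPAC culture of donor 1 duplicate 2 had 0.92, with 1.67 to 1.80 elsewhere (ratio 0.860). *Slc12a4* stood out in BPAC, where donor 1 duplicate 2 gave a log2 change of 1.92 and the other cultures 1.15 to 1.17 (ratio 0.977). In BAC, *Slc39a8* had 0.82 in donor 1 duplicate 2 against 1.16 to 1.23 in the others (ratio 0.845). For *Slc39a10* the BAC culture of donor 2 duplicate 1 had 1.84, with 1.25 to 1.34 elsewhere (ratio 0.851). *Slc27a4* stood out in BPAC, where donor 2 duplicate 1 gave a log2 change of -1.28 and the other cultures -1.53 to -1.52 (ratio 0.945). In BPAC, *Slc44a1* had -1.03 in donor 1 duplicate 1 against -0.81 to -0.78 in the others (ratio 0.882). For *Slc7a11* the BAC culture of donor 2 duplicate 1 had 0.60, with 1.01 to 1.09 elsewhere (ratio 0.831). Each of these changes kept its direction when a culture was left out, and the cause of the distances was not tested.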

How the results depend on the processing

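Of 196 recounts of called members, 148 stayed within 1.5 times the value reported. The 148 include every recount of the *Trp53* contrasts, which gave 0 calls throughout. They also include a filter by expression that kept all 13519 genes and so repeated the main fit. Shares in brackets are those of all genes in the same fit. With the replicate block the calls were 64 in AC (16.4%), 116 in PAC (34.9%) and 61 for the *Braf* contrast (6.51% higher and 7.48% lower), and thinned to the smallest total with the replicate block 63 (16.2%), 116 (33.7%) and 61 (13.2%). The block without the PAC cultures of duplicate 1, chosen after seeing the data, gave 67 in AC (16.9%), 38 in PAC (6.73%) and 59 for *Braf* (13.6%). In BAC and BPAC the block gave 131 and 144 (51.9% and 54.4%), within 1.5 times of the value reported, and it cannot be fitted to EtOH levels, which differ between cultures. Duplicate 2 alone gave 3 calls in AC (0.0962%), 0 in PAC (0.0518%), 68 in BAC (21.0%), 79 in BPAC (22.2%) and 4 for *Braf* (0.237%). PAC had 3 without both cultures of duplicate 1 (0.355%). Leaving out 1 culture gave 1 to 3 in AC (0.0666% to 0.178%), 36 to 68 in PAC (10.5% to 21.0%), 8 to 32 for *Braf* (1.95% to 8.26%) and 0 to 1 for *Braf* with EtOH (0.0% to 0.0814%). At a threshold of 0.05 the counts were 50 in AC (16.8%) and 51 for *Braf* (14.7%), and at 0.001 they were 11 in AC (1.39%), 37 in PAC (11.1%), 12 for *Braf* (2.15%) and 0 for *Braf* with EtOH (0.0%). The 1 call with EtOH became 2 with DESeq2 (0.466%) and 0 with limma-voom, library size alone, donors summed, thinned samples, either duplicate alone and without the PAC cultures of duplicate 1 (at most 0.0444%). The *Trp53* contrasts gave 0 under every setting. All 217 named values kept their direction in 4289 recalculations, 547 of which did not pass the threshold, 120 of them in duplicate 2 alone. Each of the 217 was called in the main fit, and named values not called there were not recalculated. The settings reuse these samples in whole or in part, so a kept direction is no separate test. With 2 AC samples per treatment and 4 in the others, small changes of low carriers are not resolved, and which donor the PAC samples of duplicate 1 came from was not tested.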

Other observations

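The carriers that work as pairs of a heavy and a light chain were read together after their values were seen. Of the light chains that pair with *Slc3a2*, *Slc7a5* rose in the 4 genotypes, *Slc7a6* in PAC, BAC and BPAC and *Slc7a11* in BAC and BPAC, while *Slc7a7* fell in PAC, BAC and BPAC and *Slc7a8* in BAC and BPAC. *Slc7a6*, an exchanger of cationic for neutral amino acids, had 12.8 to 25.6 CPM (median 18.1) with EtOH and 26.3 to 42.4 CPM (median 32.0) with 4-HT and rose (0.74 for PAC, 0.77 for BAC and 1.14 for BPAC). *Slc7a7*, of the same activity, had 80.0 to 103 CPM (median 82.7) with EtOH and 54.5 to 74.3 CPM (median 65.8) with 4-HT and fell (-0.41 for PAC, -0.32 for BAC and -0.46 for BPAC). *Slc7a8*, a basolateral exchanger of neutral amino acids, had 3.87 to 11.8 CPM (median 7.43) with EtOH and 1.09 to 5.10 CPM (median 2.32) with 4-HT and fell (-1.61 for BAC and -2.20 for BPAC). The heavy chain *Slc3a1* and its light chain *Slc7a9* both fell, *Slc7a9* from 14.1 to 66.1 CPM (median 32.5) with EtOH to 2.42 to 26.4 CPM (median 8.03) with 4-HT (-1.94 for AC, -1.94 for BAC and -2.88 for BPAC).

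Zinc carriers of the secretory pathway were also singled out after their values were seen. *Slc30a5* and *Slc30a7*, which load the Golgi with zinc, rose in BAC (0.29 and 0.30) and BPAC (0.33 and 0.34). In the AC and PAC cultures their changes were -0.05 to 0.06 and -0.10 to -0.04 for *Slc30a5* and -0.01 to 0.15 and -0.22 to -0.02 for *Slc30a7*. *Slc39a7*, which releases zinc from the endoplasmic reticulum, had 4.56 to 8.57 CPM (median 6.04) with EtOH and 5.51 to 12.4 CPM (median 8.72) with 4-HT and rose (0.51 for BAC and 0.65 for BPAC). Zinc carriers of internal membranes did not move one way. *Slc30a6*, the Golgi partner of *Slc30a5*, was lower in 14 of 14 cultures (-0.46 to -0.08), as were *Slc39a9* (-1.16 to -0.34), *Slc39a11* (-0.52 to -0.03) and *Slc30a4* (-1.06 to -0.12), of which *Slc30a6* was called in PAC and BPAC, *Slc39a9* and *Slc39a11* in BAC and BPAC and *Slc30a4* in none. *Slc39a13* (-0.07 to 0.74) and *Slc30a2* (-0.78 to 2.60) were higher in 11 of 14 and called in no genotype. The annotation gives 80.7% of the exonic bases of *Slc39a7* to an overlapping gene model on the same strand as well.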
